A study of Mus musculus with 12 samples.

Results

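The genes described here are 40 genes of autophagy and of ER-phagy, its branch that degrades endoplasmic reticulum, measured in brown adipose tissue. They were taken by name, as a list built around Retreg1, whose lower signal after anti-FGFR1 was already known from these arrays, and 37 of the 40 were found among the 18193 genes tested. A gene is represented by its brightest probe set, selected on the mean level of all 12 arrays regardless of group, and the agreement of its other probe sets is given beside it. The measured values that shaped the list are therefore that mean level and, for Retreg1 alone, the difference between the groups. Optn, Bnip3l and Park2 had no probe set assigned to them alone in the probe table and are not analysed here.

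The anti-FGFR1 group comprised 6 male ob/ob mice, obese through loss of leptin, which were given a single intraperitoneal dose of 1 mg/kg of an antibody that activates FGFR1. The control IgG group comprised 6 male ob/ob mice that were pair-fed, so that food intake was matched, and were given a control antibody. All mice were 3 months old and on normal chow, and the tissue was taken on day 4. Each mouse gave 1 array, and all levels below are the deposited log2 expression values.

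Autophagy encloses cytoplasm in a double membrane, the autophagosome, and delivers it to the lysosome. A kinase complex around ULK1 and a lipid kinase complex around Beclin 1 start the membrane, conjugation enzymes attach LC3 and GABARAP proteins to it, and receptors bind those proteins to bring cargo in. RETREG1, also called FAM134B, sits in the endoplasmic reticulum, bends its membrane through a reticulon homology domain and carries a motif that binds LC3. Beige adipocytes are known to remove mitochondria by autophagy when they lose their thermogenic state.

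RefSeq places several transcription starts in Retreg1, spread along the gene, and the arrays were not resolved by start here. The 250 bases before each start were read from the RefSeq promoter table (build GRCm38.p6), and those before the 2 starts that held a searched motif are shown, since Retreg1 is the gene the results turn on. Capitals mark the motifs. The first, chr15:25843048-25843297 on the plus strand, lies before the most upstream of the 4 starts and holds TGACGTCA, the cAMP response element. The second, chr15:25942429-25942678 on the plus strand, lies before the most downstream start and holds CACGTG, an E-box of the kind that TFEB and the clock factors bind.
Retreg1 upstream start: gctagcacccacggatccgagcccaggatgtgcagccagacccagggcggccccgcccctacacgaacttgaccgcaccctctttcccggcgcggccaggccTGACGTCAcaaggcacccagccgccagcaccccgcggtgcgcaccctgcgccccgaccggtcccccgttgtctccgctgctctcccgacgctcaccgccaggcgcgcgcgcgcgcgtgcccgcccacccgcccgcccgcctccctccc
Retreg1 downstream start: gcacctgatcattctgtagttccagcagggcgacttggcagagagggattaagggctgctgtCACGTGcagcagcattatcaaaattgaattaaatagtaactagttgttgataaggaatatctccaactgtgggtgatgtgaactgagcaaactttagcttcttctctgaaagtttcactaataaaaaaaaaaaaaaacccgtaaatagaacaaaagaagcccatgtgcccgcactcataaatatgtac
CACGTG, TGACGTCA and GTAAACA (the forkhead motif) were searched on both strands, and they do not overlap each other in these windows. CACGTG was present in 7.38% of the 18109 windows of all genes tested and in 6 of 40 windows of 32 of the members. TGACGTCA was present in 2.12% of all and in 2 of 40, and GTAAACA in 2.61% and in 1 of 40. The member windows include the 4 of Retreg1, of which 1 holds CACGTG and 1 TGACGTCA. The motifs were chosen with these sequences in view. A match describes letters in a window, and no match says only that these letters are not in it.

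Skeletal muscle transcripts varied widely between arrays, and anti-FGFR1 replicate 5 stood apart. The mean log2 level of 20 skeletal muscle markers was 7.10 in anti-FGFR1 replicate 5 and between 10.08 and 11.28 in the other anti-FGFR1 arrays, against 9.34 in control IgG replicate 6 and between 10.15 and 11.42 in the other control arrays. The groups overlapped (10.03 ± 1.51 in anti-FGFR1 and 10.59 ± 0.78 in control IgG, SD, n = 6 each, two-sided exact permutation p = 0.530). All 20 markers had a log2 fold change below 0, with 0 past the limma threshold and 0 at an unadjusted p under 0.05. Over all 18193 genes, 8472 were below 0, 1461 passed and 4081 had an unadjusted p under 0.05. These 20 fold changes are not independent, since the low anti-FGFR1 replicate 5 enters each of them. The mean over the 12 arrays of single muscle markers ran from 8.72 to 12.9. Single arrays went lower: in the anti-FGFR1 array where each was lowest, Myh4 was at 5.12 and Tnnt3 at 5.38. The mean of 11 endothelial markers (7 called lower, 0 higher) was lower after anti-FGFR1 (9.47 ± 0.10 against 9.72 ± 0.09 in controls, SD, n = 6 each), as was that of 9 markers of smooth muscle and pericytes (7 called lower, 0 higher; 9.60 ± 0.05 against 9.93 ± 0.10 in controls), each with an exact permutation p of 0.0022, the smallest possible (0.0079 adjusted over 11 measures). The mean of 6 nerve and Schwann cell markers (2 called higher, 1 lower) was higher by a small amount (9.23 ± 0.02 after anti-FGFR1 and 9.18 ± 0.01 in controls), with the same exact permutation p of 0.0022 (0.0079 adjusted). The difference between 3' and 5' control probe sets, a sign of RNA quality, was 0.203 ± 0.027 after anti-FGFR1 and 0.161 ± 0.031 in controls (exact permutation p = 0.0368, adjusted 0.101). The mean of 13 macrophage markers (2 called higher, 0 lower) was 10.575 ± 0.152 after anti-FGFR1 and 10.329 ± 0.278 in controls (exact permutation p = 0.0952, adjusted 0.156). That of 8 fibroblast and preadipocyte markers (3 called higher, 2 lower) was 10.447 ± 0.132 and 10.307 ± 0.139 (exact permutation p = 0.0996, adjusted 0.156). For white adipocyte, T and B cell, and mast cell and granulocyte markers the adjusted exact permutation p was 0.634, 0.156 and 0.249. The part of these measures in the differences below was not tested beyond the covariate values given. Brown adipocyte markers averaged 12.17 ± 0.08 after anti-FGFR1 and 12.05 ± 0.16 in controls (exact permutation p = 0.119, adjusted 0.164). Of these 9 markers 2 were called higher and 0 lower. Elovl3 was at 0.76 ± 0.19 (log2 fold change ± SE, limma adjusted p = 0.0254) and Cox7a1 at 0.16 ± 0.05 (limma adjusted p = 0.0423). The lowest was Prdm16, at -0.22 ± 0.14 (limma adjusted p = 0.372). Ucp1, the uncoupling protein of brown fat, had a log2 fold change of 0.03 ± 0.04 (SE) at a control level of 14.52. In such bulk tissue fewer cells of a type and less RNA per cell cannot be told apart.

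Retreg1 signal was about 2 times lower after anti-FGFR1, and Retreg1 was the member with the largest difference. On the brighter of its 2 probe sets the log2 level ran from 9.46 to 10.71 with a median of 10.24 in anti-FGFR1 arrays, against 10.79 to 11.61 with a median of 11.23 in control arrays. The groups did not overlap: the highest anti-FGFR1 array, replicate 2, lay just under the lowest control array, replicate 6. The log2 fold change was -1.03 ± 0.18 (SE), a 2.04-fold lower level, and 7 of the 18193 genes had a lower log2 fold change. The dimmer probe set gave 6.59 to 7.57 with a median of 7.11 in anti-FGFR1 arrays, against 7.66 to 8.12 with a median of 7.95 in controls. It had a log2 fold change of -0.83 ± 0.12 (SE), so both probe sets ran the same way. Since Retreg1 was chosen for this difference, these values are a description and no test is given.

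**Figure D1:**
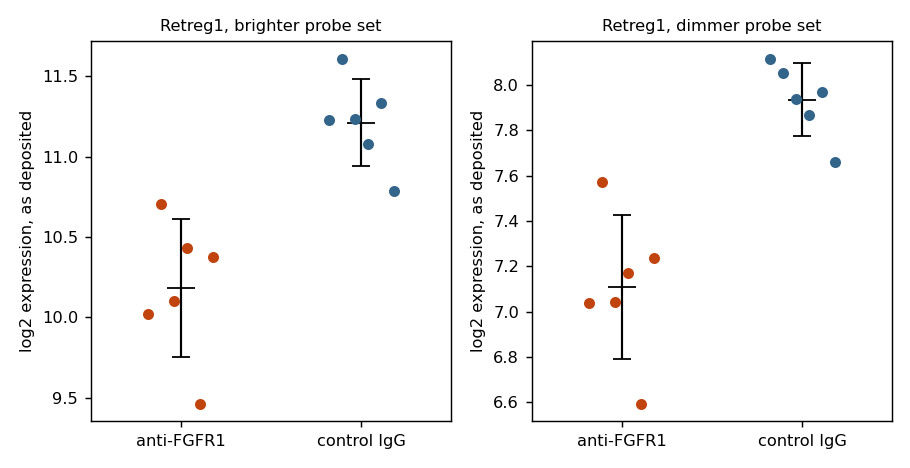
Retreg1 log2 expression as deposited (vertical axis) in the 6 anti-FGFR1 and the 6 control IgG arrays, for its brighter (left) and dimmer (right) probe set. Points are arrays, and bars give mean ± SD. All anti-FGFR1 points lie below all control points in both panels.

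Within each group, Retreg1 followed the skeletal muscle markers. On the brighter probe set Pearson's r with their mean was 0.941 in anti-FGFR1 arrays (Spearman's rho 0.886, exact permutation p = 0.0056 and 0.0333, n = 6) and 0.933 in control arrays (rho 0.943, exact permutation p = 0.0069 and 0.0167, n = 6). Without the 2 arrays farthest from the median of the muscle mean, r was 0.815 in anti-FGFR1 and 0.966 in control arrays, over 4 arrays each. On the dimmer probe set r was 0.925 in anti-FGFR1 arrays (rho 0.943, exact permutation p = 0.0028 and 0.0167, n = 6; r = 0.981 without the 2 farthest). In control arrays it was 0.761 (rho 0.600, exact permutation p = 0.075 and 0.242, n = 6; r = 0.472 without the 2 farthest). After Benjamini-Hochberg adjustment over these 4 relations, Pearson's p was 0.0093 in the first 3 and 0.075 in the last, and Spearman's was 0.0444, 0.0333, 0.0333 and 0.242 in the order given.

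As a description, Retreg1 levels are given here for 2 pairs of arrays with like muscle means. At a muscle mean of 11.28, anti-FGFR1 replicate 2 had a Retreg1 level of 10.71, whereas control IgG replicate 2, at a muscle mean of 11.35, had 11.61. At 10.17, anti-FGFR1 replicate 1 had 10.02, and control IgG replicate 4, at 10.15, had 11.08. With the muscle mean as a covariate the Retreg1 log2 fold change was -0.87 ± 0.07 (SE), and without the 2 arrays lowest in muscle markers (anti-FGFR1 replicate 5 and control IgG replicate 6) it was -0.97 ± 0.13. With the 3' to 5' difference as a covariate it was -1.005 ± 0.23. The fit with the muscle mean includes anti-FGFR1 replicate 5. Retreg1 was chosen for its group difference, so these values are descriptions, and the part of muscle tissue in that difference was not tested.

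**Figure D2:**
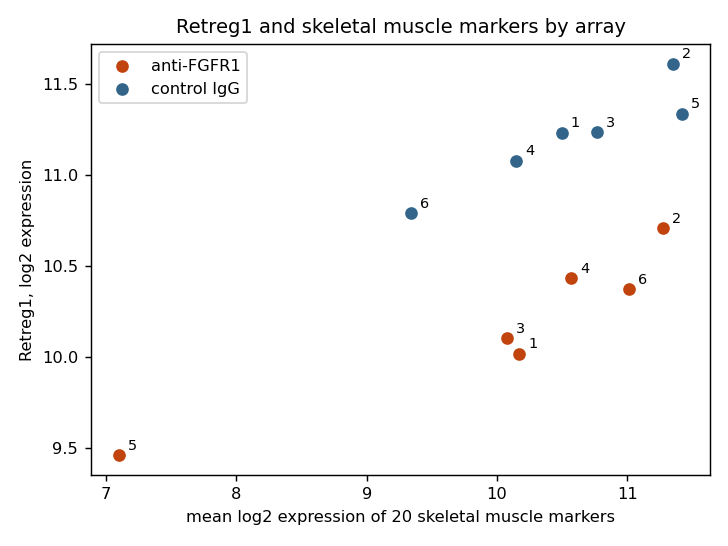
Retreg1 log2 expression (vertical axis) against the mean log2 expression of 20 skeletal muscle markers (horizontal axis), 1 point per array, numbered by replicate. In each group Retreg1 was lowest in the array with the lowest muscle mean, and the anti-FGFR1 points run below the control points at like muscle means.

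The genes whose values varied most like Retreg1, over the deviations of the 12 arrays from their group means, were Bex1 (r = 0.976), Rcan2 (0.971), Eno3 (0.964), Cmya5 (0.961), Gm11716 (0.958), Myom2 (0.957), Tacc2 (0.955), Pfn2 (0.955), Ckmt2 (0.955) and Synm (0.954). Eno3, the muscle form of enolase, is on the list of muscle markers, and Cmya5, Myom2 and Ckmt2 are known as genes of striated muscle. None of these 10 passed the limma threshold between the groups, with log2 fold changes from -1.30 (Myom2) to -0.15 (Gm11716 and Bex1). Retreg1 itself had r = 0.935 with the muscle mean on this scale. The 36 other members had r between -0.53 (Atg2a) and 0.68 (Atg4b, the gene of a protease that primes LC3). These correlations share the arrays, are descriptions, and were not tested.

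Its relatives Fam134a and Fam134c, named Retreg2 and Retreg3 in the current annotation, encode proteins of the same domain structure that also serve as ER-phagy receptors. Retreg2 levels ran from 10.61 to 10.79 (median 10.73) in anti-FGFR1 arrays, against 10.72 to 10.83 (median 10.76) in controls. Retreg3 levels ran from 9.76 to 9.93 (median 9.83) in anti-FGFR1 arrays, against 9.60 to 9.84 (median 9.75) in controls. The groups overlapped for both, with log2 fold changes of -0.04 ± 0.04 and 0.10 ± 0.05 (SE, limma adjusted p = 0.610 and 0.242). The other probe sets of Retreg3 gave -0.02 and 0.11. The 6 further ER-phagy receptors, Ccpg1, Sec62, Calcoco1, Rtn3, Atl3 and Tex264, had log2 fold changes between -0.06 and 0.04. Of the 6, 0 passed the limma threshold and 0 had an unadjusted p under 0.05, against 1461 and 4081 of all 18193 genes.

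Of all 18193 genes, 8.03% passed a limma adjusted p of 0.05 (2.94% higher and 5.09% lower after anti-FGFR1). Of the 36 members besides Retreg1, 4 passed (11.1%), where the background share would give 2.89. Atg10 and Nbr1 rose, Becn1 and Atg13 fell, and 32 did not pass. The median log2 fold change of the 36 was -0.03, against 0.01 over all genes. Of the 36, 24 were below 0 and 12 above, against 8472 and 9721 of all 18193 genes. Each of the 36 lay within 0.3 of 0, and their median absolute log2 fold change was 0.0706, against 0.0735 over all genes. The groups did not overlap for 5 of the 36 (1 higher and 4 lower), against 5.12% of all genes (1.57% higher and 3.55% lower). With the muscle mean as a covariate 3 of the 36 passed (Atg10, Atg13 and Becn1), where 7.26% of all genes passed. With the 3' to 5' difference as a covariate 1 passed (Atg10), where 3.78% of all genes passed.

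**Figure D3:**
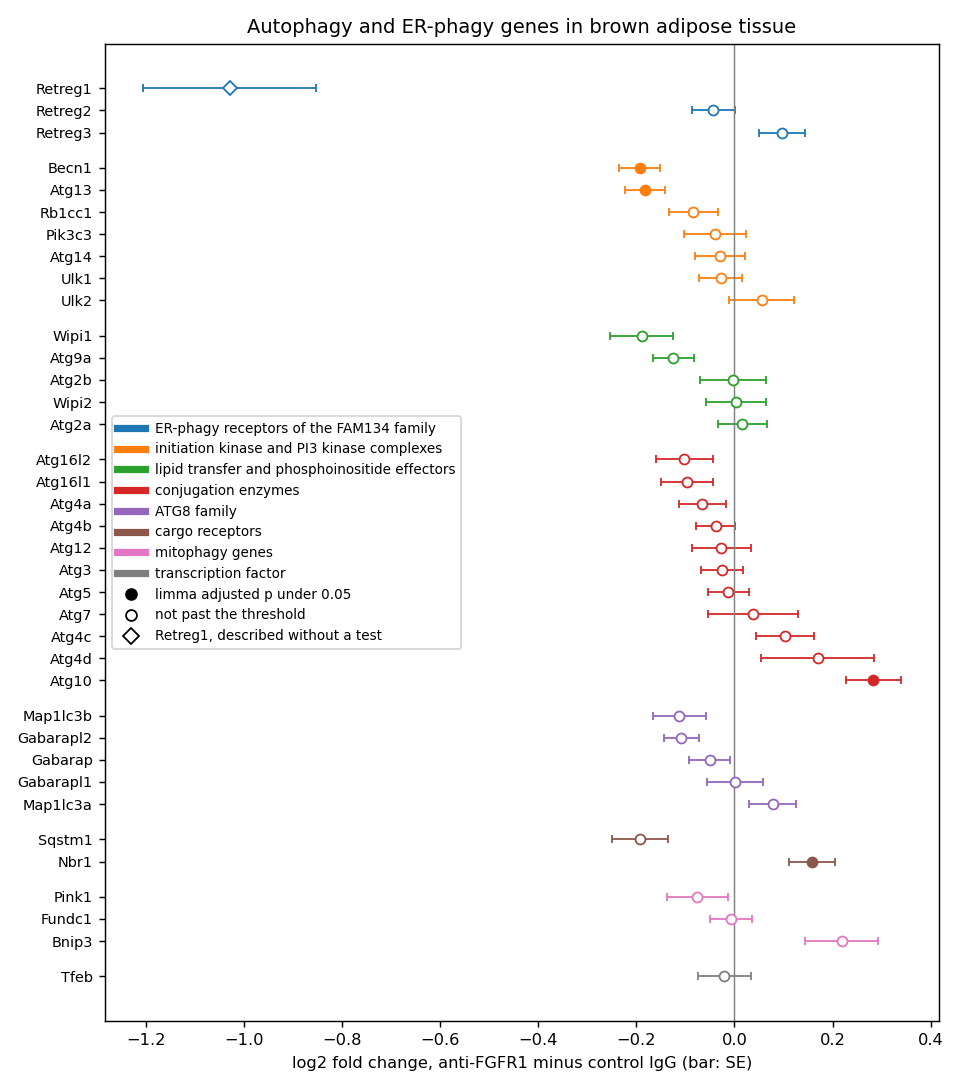
Log2 fold change, anti-FGFR1 minus control IgG, of the 37 members (horizontal axis; bars are SE), ordered by role and coloured by role. Filled circles passed limma at an adjusted p of 0.05; the diamond marks Retreg1, at -1.03, which is described without a test, while all others lie within 0.3 of 0.

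Among the genes that start the autophagosome, Becn1 and Atg13 fell by small amounts and the other 5 did not pass. Becn1 encodes Beclin 1, a core subunit of the complex that makes phosphatidylinositol 3-phosphate. Its level ran from 10.57 to 10.65 (median 10.63) in anti-FGFR1 arrays, against 10.71 to 10.90 (median 10.82) in controls. The groups did not overlap, and the log2 fold change was -0.19 ± 0.04 (SE, limma adjusted p = 0.0092). Its 4 other probe sets gave -0.04, 0.08, -0.05 and -0.07 and did not pass, and averaging all 5 put Becn1 at -0.06 (limma adjusted p = 0.379). Atg13, the subunit that joins the ULK kinases to their scaffold, ran from 9.17 to 9.29 (median 9.23) in anti-FGFR1 arrays, against 9.37 to 9.50 (median 9.40) in controls. It also separated the groups (-0.18 ± 0.04, limma adjusted p = 0.0139), while its other probe sets gave -0.12 and 0.03, and the mean of the 3 was -0.09 (limma adjusted p = 0.119). Neither gene passed once the 3' to 5' difference was a covariate (-0.16, limma adjusted p = 0.114, and -0.17, limma adjusted p = 0.103), and Atg13 did not pass after a further quantile normalization (-0.14, limma adjusted p = 0.0663).

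The remaining members of these complexes lay close to 0. The scaffold gene Rb1cc1 was at -0.08 ± 0.05, the kinase genes Ulk1 and Ulk2 at -0.03 ± 0.04 and 0.06 ± 0.07, the lipid kinase gene Pik3c3 at -0.04 ± 0.06 and Atg14, which targets that kinase to the endoplasmic reticulum, at -0.03 ± 0.05 (log2 fold change ± SE). Their limma adjusted p values were between 0.348 and 0.786.

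The lipid transfer protein ATG2 and the membrane protein ATG9 help to supply membrane, and the WIPI proteins bind phosphatidylinositol 3-phosphate. Among these 5 genes limma called 0, and 2 had an unadjusted p under 0.05 (Atg9a and Wipi1), against 4081 of all 18193 genes. Atg9a, which encodes a membrane protein that moves lipids between leaflets, ran from 9.42 to 9.60 (median 9.52) in anti-FGFR1 arrays, against 9.60 to 9.69 (median 9.63) in controls. Its highest anti-FGFR1 array was 9.602 and its lowest control array 9.604, so the groups only just separated (log2 fold change -0.12 ± 0.04, limma adjusted p = 0.0858). The probe sets of Wipi1 and Wipi2, named after their values were seen, disagreed. Wipi2 was at 0.00 ± 0.06 on the probe set used but at -0.26 ± 0.06 on one nearly as bright, which passed limma over all probe sets (limma adjusted p = 0.0237). Wipi1 was at -0.19 ± 0.06 on the probe set used, and its 5 others spanned -0.35 (limma adjusted p = 0.0433) to 0.13.

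Of the 11 conjugation enzymes, 1 rose. ATG10 is the E2-like enzyme that joins ATG12 to ATG5, a step needed before LC3 can be attached to membrane. Atg10 ran from 8.78 to 9.01 (median 8.87) in anti-FGFR1 arrays, against 8.43 to 8.75 (median 8.62) in controls. All anti-FGFR1 arrays lay above all controls, and the log2 fold change was 0.28 ± 0.06 (SE, limma adjusted p = 0.0063), a 1.22-fold higher level. Atg10 has 1 probe set, and it passed under every alternative run and without any 1 array, with log2 fold changes between 0.25 and 0.32.

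The other 10 conjugation genes did not pass. They were the E1-like enzyme gene Atg7 (0.04 ± 0.09), the E2-like gene Atg3 (-0.03 ± 0.04), the ligase genes Atg5, Atg12, Atg16l1 and Atg16l2 (-0.10 to -0.01) and the protease genes Atg4a, Atg4b, Atg4c and Atg4d (-0.07 to 0.17). The partners of ATG10 in its reaction, Atg5 and Atg12, were at -0.01 ± 0.04 and -0.03 ± 0.06.

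LC3 and GABARAP proteins are the ubiquitin-like tags of the autophagosome. Among their 5 genes limma called 0, and 1, Gabarapl2, had an unadjusted p under 0.05, against 4081 of all 18193 genes. Gabarapl2 ran from 11.05 to 11.12 (median 11.09) in anti-FGFR1 arrays, against 11.14 to 11.22 (median 11.21) in controls. The groups did not overlap, at -0.11 ± 0.04 (log2 fold change ± SE, limma adjusted p = 0.0798), while its dimmer probe set was at 0.01. Map1lc3b was at -0.11 ± 0.05, Map1lc3a at 0.08 ± 0.05, Gabarap at -0.05 ± 0.04 and Gabarapl1 at 0.00 ± 0.06.

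Cargo receptors carry ubiquitin-marked proteins and organelles to these tags. Nbr1 ran from 11.24 to 11.37 (median 11.34) in anti-FGFR1 arrays, against 11.04 to 11.26 (median 11.19) in controls. Of the anti-FGFR1 arrays, 5 lay above all controls and replicate 6 lay among them. Nbr1 passed narrowly (0.16 ± 0.05, SE, limma adjusted p = 0.04999), and leaving out any 1 of 10 of the 12 arrays ended its call, as did either covariate (muscle mean, limma adjusted p = 0.0863; 3' to 5' difference, 0.20, limma adjusted p = 0.0696), leaving out the 2 arrays lowest in muscle markers (limma adjusted p = 0.0920) and averaging its 2 probe sets (0.12, limma adjusted p = 0.247). Sqstm1, which encodes p62 and is named after its values were seen, ran from 11.86 to 12.20 (median 12.01) in anti-FGFR1 arrays, against 12.10 to 12.30 (median 12.23) in controls. Its groups overlapped, and it did not pass (-0.19 ± 0.06, limma adjusted p = 0.0530). Sqstm1 passed without dim genes, with an intensity trend, and without anti-FGFR1 replicate 4 or control IgG replicate 6, but not in the other alternatives.

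**Figure D4:**
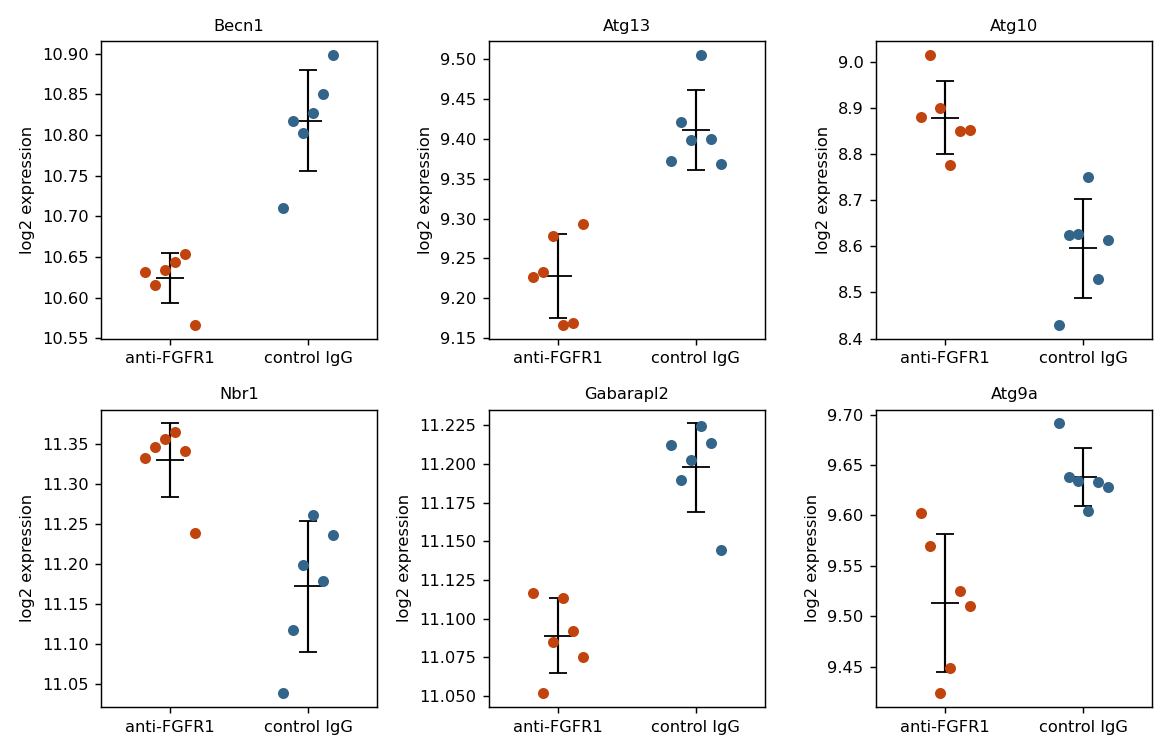
Log2 expression (vertical axes, each with its own range) of Becn1, Atg13, Atg10, Nbr1, Gabarapl2 and Atg9a in the 6 anti-FGFR1 and the 6 control IgG arrays. Points are arrays, and bars give mean ± SD. The groups separate for all but Nbr1, where anti-FGFR1 replicate 6, at 11.24, lies among the controls.

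Mitophagy receptors mark mitochondria for removal. Bnip3, whose gene responds to hypoxia in many tissues, ran from 12.88 to 13.27 (median 13.16) in anti-FGFR1 arrays, against 12.79 to 13.13 (median 12.87) in controls. The groups overlapped, and Bnip3 did not pass (0.22 ± 0.07, SE, limma adjusted p = 0.0911). It passed without anti-FGFR1 replicate 6 or without control IgG replicate 4, with a log2 fold change of up to 0.27. Pink1, the kinase that senses damaged mitochondria, was at -0.08 ± 0.06 and the receptor gene Fundc1 at -0.01 ± 0.04. Tfeb, the transcription factor that drives lysosomal and autophagy genes, was at -0.02 ± 0.05 (limma adjusted p = 0.865).

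The probe sets of a member did not always agree in sign. Of the 37 members 28 had several probe sets, whose fold changes all had the same sign in 15 members, Retreg1 among them, and differed in sign in 13. The share over all genes with several probe sets was not computed, so these counts are not set against a background. Of the 37 members, 23 had an absolute log2 fold change below 0.1 on the probe set used. Of the 85 member probe sets besides those of Retreg1, 5 passed limma over all probe sets (5.88%), against 6.90% of all 34945 single-gene probe sets. They were 1 each of Atg10, Becn1, Atg13, Wipi1 and Wipi2.

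Other genes of the pathway were taken from 5 lists by function, with 122 genes measured. Of these, 10 passed limma (8.20%), against 8.03% of all genes, 3 higher and 7 lower after anti-FGFR1. By list, 4 of 38 upstream regulators passed (2 rose and 2 fell), 3 of 33 other machinery and receptor genes (all fell), 2 of 14 ER-shaping genes (1 each way), 1 of 31 lysosomal genes (fell) and 0 of the 6 further ER-phagy receptors. The median log2 fold change of the 122 genes was -0.01.

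Among the upstream regulators, Deptor and Tsc2 fell and Trib3 and Sesn2 rose. Deptor, which encodes a protein that binds and inhibits mTOR, ran from 11.69 to 11.87 (median 11.73) in anti-FGFR1 arrays, against 11.97 to 12.34 (median 12.23) in controls. Its log2 fold change was -0.43 ± 0.06 (SE, limma adjusted p = 0.00051), and all 6 of its probe sets were below 0. Trib3, a pseudokinase gene induced in amino acid and ER stress, ran from 8.61 to 9.39 (median 8.93) in anti-FGFR1 arrays, against 8.06 to 8.63 (median 8.32) in controls. Only its extremes overlapped, and it rose by 0.63 ± 0.12 (limma adjusted p = 0.0062), with 0.49 on its other probe set. Sesn2, which encodes a leucine-binding inhibitor of mTOR signalling, rose by 0.21 ± 0.06 (limma adjusted p = 0.0336). Tsc2, which restrains the mTOR activator RHEB, changed by -0.18 ± 0.05 (limma adjusted p = 0.0309). The groups did not overlap for Sesn2 or Tsc2, but the call of Sesn2 ended without any 1 of 5 arrays and that of Tsc2 without any 1 of 8. Neither passed with the muscle mean as a covariate (Sesn2 limma adjusted p = 0.0572, Tsc2 0.0515), nor without the 2 arrays lowest in muscle markers (Sesn2 0.0619, Tsc2 0.0553). With the 3' to 5' difference as a covariate Sesn2 was at 0.27 (limma adjusted p = 0.0577) and Tsc2 at -0.11 (limma adjusted p = 0.312).

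Among the other machinery genes, Nrbf2 had the largest fold change. It encodes a subunit of the Beclin 1 lipid kinase complex. Its level ran from 10.59 to 10.91 (median 10.68) in anti-FGFR1 arrays, against 11.03 to 11.45 (median 11.22) in controls. The groups did not overlap, and Nrbf2 is represented by 1 probe set (-0.51 ± 0.08, SE, limma adjusted p = 0.0012). Tollip, an adaptor that binds ubiquitin, changed by -0.25 ± 0.05 (limma adjusted p = 0.0065), with -0.26 on its other probe set, and did not pass with the 3' to 5' difference as a covariate (-0.18, limma adjusted p = 0.117). Sh3glb1, which encodes endophilin B1, a curvature-sensing partner of the Beclin 1 complex, changed by -0.25 ± 0.04 (limma adjusted p = 0.0011), but its 2 other probe sets were at 0.11 and 0.05 and the mean of the 3 at -0.03 (limma adjusted p = 0.740).

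The lysosomal protease gene Ctsf changed by -0.25 ± 0.04 (SE, limma adjusted p = 0.0013), with 0.08 on its dimmer probe set and -0.08 for the mean of the 2 (limma adjusted p = 0.185). Reep6, which encodes a membrane-shaping protein of the endoplasmic reticulum, rose by 0.33 ± 0.06 (limma adjusted p = 0.0025). Kif5b, the kinesin heavy chain gene whose motor extends endoplasmic reticulum along microtubules, changed by -0.20 ± 0.04 (limma adjusted p = 0.0072), with 5 of its 6 probe sets below 0. Kif5b did not pass when all 6 were averaged (-0.15, limma adjusted p = 0.127) or with the 3' to 5' difference as a covariate (-0.16, limma adjusted p = 0.109). For all 3 genes the groups did not overlap on the probe set used.

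**Figure D5:**
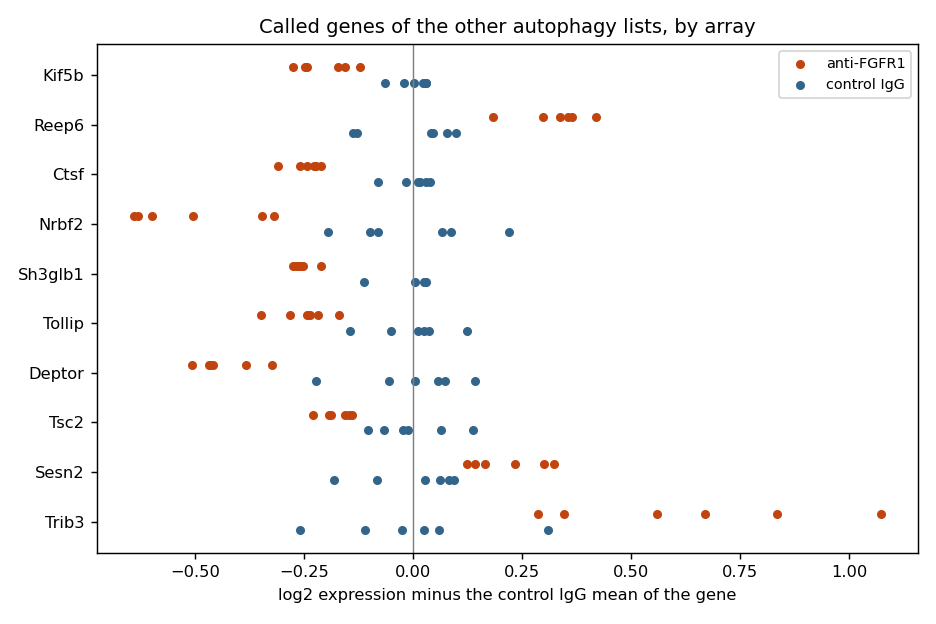
Log2 expression of each array minus the control IgG mean of the gene (horizontal axis) for the 10 called genes of the other autophagy lists, with anti-FGFR1 arrays above control IgG arrays in each row. The groups separate for 9 of the genes; for Trib3 the lowest anti-FGFR1 array (8.61) lies under the highest control array (8.63).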

How the data were processed

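RNA from brown adipose tissue of 12 ob/ob mice was labelled with biotin and hybridised to one-colour arrays, 1 per mouse. The tools listed, per the submitters' processing notes, are RMA and limma, with neither version nor role. RMA corrects background, normalizes arrays against each other and summarises probes. The authors deposited log2 expression values for 45101 probe sets (3.16 to 14.9, array medians 7.19 to 7.23). They were used as deposited. The number of arrays limits the precision, and changes of dim probe sets are likely to be understated.

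Gene names come from GEO's platform annotation, and symbols were updated by Entrez identifier to the RefSeq table (GRCm38.p6, 34754 of 34958 single-gene probe sets matched). There were 932 probe sets with several genes and 9211 without an entry, which, with the 64 control probe sets, stayed out. Per gene, the brightest probe set by mean of all 12 arrays was kept, which left 18193 genes. The comparison used limma 3.58.1 under R 4.3.3 (lmFit, eBayes, two-sided, no covariate, Benjamini-Hochberg over all genes, called under 0.05), and input was read by version 1.17.8 of data.table. A log2 fold change is the anti-FGFR1 mean less the control IgG mean, with the moderated SE. Means per array were compared by two-sided exact permutation over all 924 assignments. The gene test was tested on simulated data. The most alike arrays had 0.0665% of values in common.

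Members and lists were chosen with earlier results of these data known, and the motifs with the Retreg1 sequences in view. No list was tested. The naming rule takes Retreg1 and its relatives, members that were called, that separated the groups or whose fold change was 0.2 or more in size, up to 5 called genes per further list, the 2 brightest members and the 10 genes most like Retreg1. The alternatives were another quantile normalization, median centring, the replicate block, leaving out each array, the mean of probe sets, no dim genes, the 3' to 5' difference or the muscle mean as a covariate and an intensity trend. Leaving out the 2 arrays lowest in muscle markers was added after seeing the data.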

Additional observations from a re-analysis of the deposited data

Results flagged for a closer look

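Nbr1 in anti-FGFR1 replicate 6, at a log2 level of 11.2, lay apart from the other 5 anti-FGFR1 arrays, the nearest of which was at 11.3, a gap of 0.735 of the group's range. Of the 20 groups examined (10 named members in anti-FGFR1 and in control IgG arrays) this was 1, and chance alone flags about 1 in 20 groups. Without this array Nbr1 was still called, and the cause was not tested.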

How the results depend on the processing

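Besides Retreg1, 4 members were called as reported, where 8.03% of all genes were. The replicate block called 2 (7.35% of all genes), the mean of all probe sets 1 (8.17%) and the 3' to 5' covariate 1 (3.78%). An intensity trend called 6 (8.81%), with Gabarapl2 and Sqstm1 added. Without dim genes 7 were called, with Gabarapl2, Atg9a and Sqstm1 added, where fewer genes were tested and 14.3% of them were called. A further quantile normalization (8.2%), median centring (7.51%), the muscle covariate (7.26%) and leaving out the 2 arrays lowest in muscle markers (5.58%) each called 3. With Retreg1 counted the totals were 5 as reported, 3 with the replicate block and 2 with the mean of all probe sets. They were 2 with the 3' to 5' covariate, 7 with an intensity trend and 8 without dim genes. When each array was left out they were between 4 and 6 (3 to 5 without Retreg1). Retreg1 was chosen for its lower signal in these arrays, so its place in these totals follows from that choice and is no test. With the 3' to 5' covariate 688 genes were called over the whole table (281 higher and 407 lower) against 1461 (535 and 926), and 6 genes of the other lists against 10, with Kif5b, Tollip, Tsc2 and Sesn2 lost. A further quantile normalization called 732 genes higher and 760 lower, so that 50.9% of the called genes were lower, against 63.4% as deposited, and the members' median was then 0.0047 against -0.0284. The Retreg1 log2 fold change lay between -1.13 and -0.89 when each array was left out and between -1.03 and -0.87 in the other 9 alternatives. No member or list gene recomputed changed direction under any alternative run. The arrays were not treated as paired by replicate number, since only 3 of 6 same-number correlations of deviations from the group means were over 0.1 (range -0.29 to 0.33), while 5 of 12 arrays correlated best with their own number. With the block the calls of Atg13 (limma adjusted p = 0.0507), Nbr1 (0.0876) and Sesn2 were lost. With the means of probe sets, Becn1, Atg13, Nbr1, Kif5b, Ctsf, Sh3glb1 and Sesn2 lost their calls, and Nbr1 also after median centring. The cause of these changes was not tested.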

Other observations

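Outside the members, the lists held genes that did not pass but lay near the threshold. Trp53inp1, a p53-induced autophagy protein gene, was at -0.47 ± 0.15 (log2 fold change ± SE, limma adjusted p = 0.0667), its groups did not overlap, and it passed without control IgG replicate 2, 3 or 5. Atg101, a partner of ATG13, was at 0.25 ± 0.07 (limma adjusted p = 0.0521). It passed after a further quantile normalization, with the mean of probe sets, without dim genes, with an intensity trend, and without replicate 6 of either group. The catalytic AMPK subunit gene Prkaa1 was at 0.25 ± 0.08 (limma adjusted p = 0.0782) and passed without anti-FGFR1 replicate 6 or control IgG replicate 2. The mTOR activator gene Rheb was at -0.15 ± 0.05 (limma adjusted p = 0.0745). Rheb passed without dim genes, with an intensity trend and without control IgG replicate 1.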
